A study of Mus musculus with 23 samples.

Results

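The genes described here are 8 of the 54347 in the deposited count matrix: the 3 leucine-rich-repeat receptors Lgr4, Lgr5 and Lgr6, and 5 genes reported as markers of incisor epithelial stem cells or of stem cells elsewhere, Lrig1, Abcg2, Pknox2, Spock1 and Pcp4. They were chosen by name, and all 8 were found in the matrix and passed the filter on low counts in every comparison. Expression was measured by RNA sequencing (Smart-seq2 libraries, a full-length cDNA method for small amounts of RNA) in 23 libraries of cells from the labial cervical loop, the epithelial niche at the growing end of the mouse lower incisor. All mice were at postnatal day 2 and of the Sox2-GFP line, in which the endogenous Sox2 promoter drives a green fluorescent reporter, and cells were sorted by that reporter into Sox2-positive cells, called dental epithelial stem cells in the labels, and Sox2-negative cells. Batch A gave 6 Sox2-negative and 6 Sox2-positive libraries, and batch B gave 4 Sox2-negative and 7 Sox2-positive libraries. Each batch was its own experiment, with other mice on another day, and the labels do not say whether libraries of 1 batch came from separate mice, so the p-values measure the spread between libraries, which may be technical.

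R-spondins are secreted proteins that bind LGR4, LGR5 and LGR6, and together these receptors and ligands remove the membrane ubiquitin ligases RNF43 and ZNRF3, which otherwise take Wnt receptors off the cell surface. LGR4 is found widely in epithelia, whereas Lgr5 and Lgr6 mark stem cells in several organs, Lgr5 being best known from the base of the intestinal crypt and Lgr6 from skin. The mouse incisor grows throughout life from the cervical loop, whose Sox2-expressing epithelial cells give rise to the enamel-forming ameloblasts.

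The sort was checked first. Levels are given as CPM, that is counts divided by the TMM-scaled total of the library and brought to 1 common scale, and as mean ± SD over libraries. Sox2 averaged 7.25 ± 4.40 CPM (n = 6) in batch A Sox2-positive libraries and 16.3 ± 2.90 CPM (n = 7) in batch B Sox2-positive libraries. It was at 0 in 8 of the 10 Sox2-negative libraries, and the other two held 0.260 CPM (batch A library 4) and 1.18 CPM (batch B library 1). The populations did not overlap in either batch. Library totals ran from 2.31 M to 9.54 M estimated counts (megacounts), so the smallest level that can be told from 0, taken as 3 counts, lay between 0.314 and 1.30 CPM, which covers counting error only. Marker genes separated the populations: 10 epithelial markers summed to 5218 to 8311 CPM in the Sox2-positive and 236 to 587 CPM in the Sox2-negative libraries, and 10 mesenchymal markers to 717 to 1933 CPM and 11416 to 14560 CPM, respectively. Mesenchymal sums thus exceeded epithelial sums in every Sox2-negative library, and these libraries also held endothelial (261 to 1412 CPM) and leukocyte markers (229 to 1268 CPM). The batches differed in composition too, with 6 glial and neural crest markers in Sox2-positive libraries at 960 to 1244 CPM (batch A) and 50.7 to 82.8 CPM (batch B), and 6 erythroid markers in Sox2-negative libraries at 977 to 1170 CPM (batch A) and 53424 to 61781 CPM (batch B). Within batch B Sox2-positive cells, libraries 1 and 2 had lower epithelial sums (5840 and 5655 CPM) than the other 5 (7780 to 8311 CPM).

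The 3 receptors are close relatives, so the sequences that keep their reads apart are shown first. Their coding sequences were 53.9% identical between Lgr4 and Lgr5, 52.7% between Lgr4 and Lgr6 and 59.9% between Lgr5 and Lgr6 over the aligned bases. The longest identical runs in those alignments were 15, 17 and 18 bases, and no word of 31 bases was shared between any pair. The stretch of 60 coding bases with the most positions identical in all 3 receptors (40 of 60, in capitals) is printed from GENCODE M21, at coding bases 573 to 632 of Lgr4 and 600 to 659 of Lgr5 and Lgr6, 5′ to 3′ on the coding strand.
Lgr4: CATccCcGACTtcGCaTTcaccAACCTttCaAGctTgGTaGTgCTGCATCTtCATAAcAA
Lgr5: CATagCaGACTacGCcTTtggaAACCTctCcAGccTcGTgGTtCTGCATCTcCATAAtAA
Lgr6: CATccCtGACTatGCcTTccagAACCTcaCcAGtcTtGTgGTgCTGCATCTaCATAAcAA
Even in this most alike window, mismatches fall every few bases. Outside the family, 1.86% of the 31-base words of Lgr5 are found among 1930 other genes. For Lgr6 it was 0.783%, among 91 other genes, and for Lgr4 none. Among the other genes, 35.2% of the 31-base words of Pcp4 also occur in Igsf5, a gene on the same strand that shares 243 exonic bases with it and was at 0 in all 4 groups. Of Lrig1, 2.17% of the words occur in Slc25a26, which overlaps its end on the other strand and averaged 5.09 to 10.6 CPM over the groups. Without a strand setting in the sources used here, reads from those 144 shared exonic bases cannot be told apart.

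Over both batches, 7 of the 8 genes passed the edgeR quasi-likelihood test with batch as covariate (adjusted p under 0.05), 5 higher and 2 lower in Sox2-positive cells. Of all 17190 genes tested, 57.5% were called, 24.9% higher and 32.5% lower, so a count of this size is not particular to these genes. Lgr4 and Lgr5 were higher and Lgr6 and Abcg2 lower in Sox2-positive cells in both batches. Spock1 was called higher in batch A alone, Pcp4 and Pknox2 in batch B alone, and Lrig1 in neither. In batch A 5 genes were called, 3 higher and 2 lower, against 43.4% of all genes (19.3% higher, 24.2% lower), and in batch B 6, 4 higher and 2 lower, against 54.7% (27.1% higher, 27.6% lower). Levels of the populations did not overlap for 5 of the 8 genes in batch A (28.1% of genes tested) and 6 of the 8 in batch B (38.1%). In bulk libraries, fewer cells of a type and less RNA per cell cannot be told apart.

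**Figure D1:**
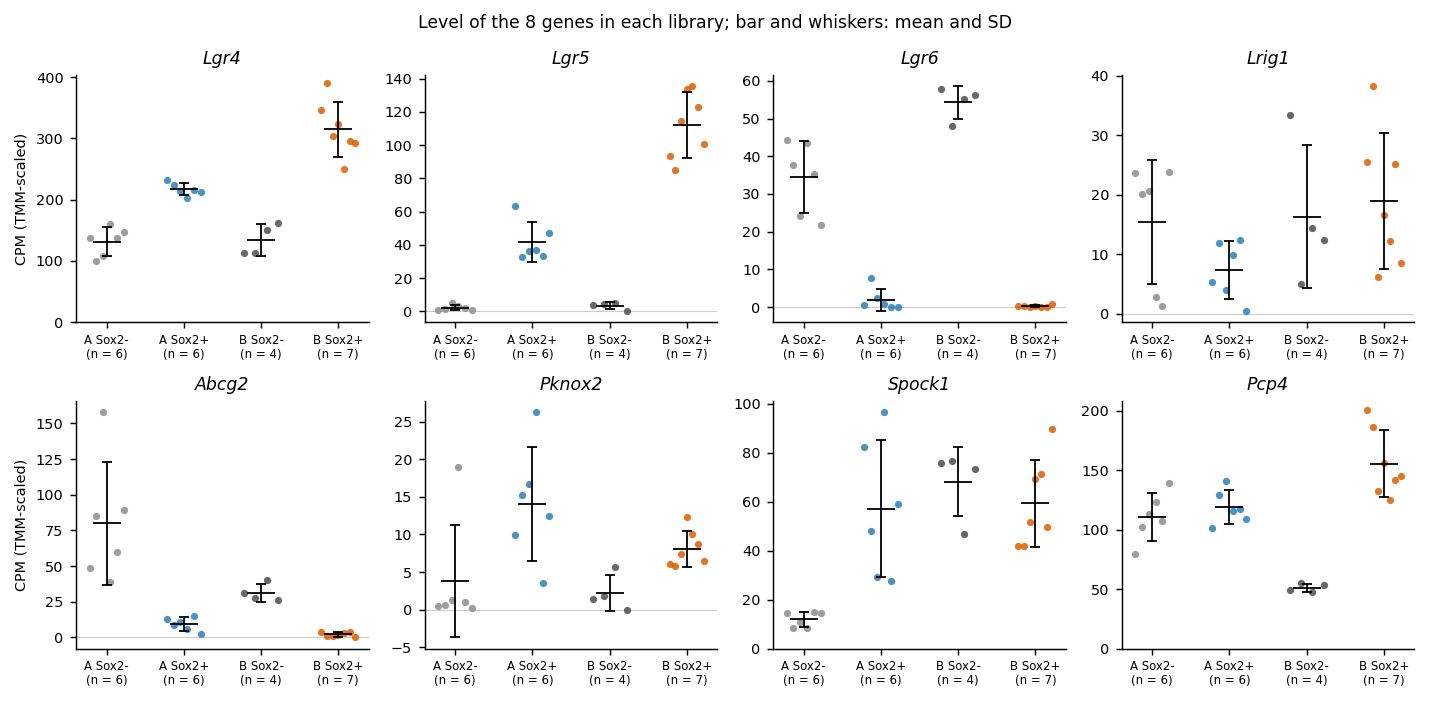
Level of each of the 8 genes in every library, in CPM on TMM-scaled totals (y axis, linear, own scale in each panel), by batch and sorted population (x axis); points are libraries, the bar and whiskers the mean and SD. Lgr5 lies at 32.7 to 136 CPM in Sox2-positive and at no more than 5.04 CPM in Sox2-negative libraries, Lgr6 shows the opposite order, and Lrig1 overlaps between the populations in both batches.

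Lgr4 (ENSMUSG00000050199.13, chr2:109917647-110014257, plus strand, GRCm38/mm10), the broadly expressed R-spondin receptor, was present in every library and higher in Sox2-positive cells. In batch A it ran from 99.7 to 160.1 CPM with a median of 137 CPM in Sox2-negative libraries and from 203 to 232 CPM with a median of 216 CPM in Sox2-positive libraries. In batch B the Sox2-negative libraries held 113, 113, 150.2 and 162 CPM, and the Sox2-positive libraries 250.2 to 389.9 CPM with a median of 305 CPM. Every Sox2-positive library was above every Sox2-negative library of its batch. The ratio of means was 1.65 in batch A and 2.34 in batch B, and the fitted log2 fold changes were 0.72 (SE 0.13, edgeR adjusted p = 0.000267) and 1.30 (SE 0.15, adjusted p = 2.14e-06). These differences were not shown to be unequal (interaction 0.51, 95% interval 0.12 to 0.89, edgeR adjusted p = 0.108). Lgr4 was the steadiest of the 8 in batch A Sox2-positive cells, with a coefficient of variation of 4.59%. Between the batches, Sox2-negative levels overlapped (means 132 ± 23.2 and 134 ± 25.7 CPM), whereas Sox2-positive levels did not (217 ± 9.96 and 315 ± 44.4 CPM, log2 difference 0.54, edgeR adjusted p = 0.00377). Batch B libraries 1 and 2, those with the lower epithelial marker sums, had the highest Lgr4 levels of their group, 346 and 389.9 CPM.

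Lgr5 (ENSMUSG00000020140.15, chr10:115450311-115587780, minus strand), the crypt-base stem cell receptor, had the largest rise of the 8 genes in Sox2-positive cells. Batch A Sox2-negative libraries held 0.802 to 4.99 CPM with a median of 1.37 CPM, close to the floor, and Sox2-positive libraries 32.7 to 63.4 CPM with a median of 36.5 CPM. Batch B Sox2-negative libraries held 3.55, 4.63, 5.04 and 0.169 CPM, the last from 1 count, and Sox2-positive libraries 85.3 to 136 CPM with a median of 114 CPM. Populations were far apart in both batches, by 19.7-fold in the means in batch A and 33.5-fold in batch B. The log2 fold change was 4.30 in batch A (SE 0.47, edgeR adjusted p = 2.45e-06) and 5.11 in batch B (SE 0.40, adjusted p = 2.91e-08), and the interaction was not called (0.75, 95% interval -0.48 to 1.97, adjusted p = 0.544). Pooled over batches, Lgr5 had a log2 fold change of 4.68 (SE 0.34, edgeR adjusted p = 5.35e-12), at rank 247 from the top of 17190 genes. Among Sox2-positive libraries, batch B was 2.70-fold above batch A with no overlap (edgeR log2 difference 1.43, SE 0.34, adjusted p = 0.00534). Glial and neural crest markers, 960 to 1244 CPM in batch A and 50.7 to 82.8 CPM in batch B, moved the other way between these groups, as did ameloblast markers (288 to 349 and 6.80 to 10.1 CPM). Pericyte and smooth muscle markers (118 to 165 and 467 to 500.2 CPM), muscle markers (0 to 8.52 and 39.9 to 127 CPM) and epithelial markers (medians 5369 and 7941 CPM) moved the same way as Lgr5. Within the pericyte and smooth muscle list, however, Rgs5 (0.916 and 1.41 CPM) and Myh11 (0.313 and 0.229 CPM) were low in both batches. Acta2 of the same list averaged 30.8 and 204 CPM. The part of these markers in the difference was not tested. Libraries 1 and 2 of batch B, lowest in epithelial markers, were also lowest in Lgr5 for that group, at 93.4 and 85.3 CPM.

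Lgr6 (ENSMUSG00000042793.13, chr1:134983301-135105276, minus strand), the member of the family known from skin, had the reverse distribution. Batch A Sox2-negative libraries held 21.7 to 44.2 CPM (median 36.5 CPM) and Sox2-positive libraries 0 to 7.69 CPM (median 0.686 CPM). The 4 Sox2-negative libraries of batch B held 57.9, 48.0, 55.3 and 56.2 CPM, and Sox2-positive libraries 0 to 0.862 CPM (median 0.242 CPM). No batch B Sox2-positive library had more than 2 counts, and in batch A 4 of 6 were at or under 3 counts. The highest was batch A Sox2-positive library 2, with 43 counts, and its mesenchymal marker sum of 1364 CPM was the lowest of its group, while its pericyte and smooth muscle sum of 165 CPM and its ameloblast sum of 349 CPM were the highest. In that group, Rgs5 and Myh11 of the pericyte and smooth muscle list averaged only 0.916 and 0.313 CPM. The part of these marker sums was not tested. Pooled over libraries, Lgr6 was 17.3 times higher in Sox2-negative than in Sox2-positive cells in batch A (95% counting interval 13.4 to 22.8), and 267 times higher in batch B, where the Sox2-positive side rests on 7 counts (95% counting interval 129 to 666). These intervals take the estimated counts as reads and cover counting error only. Fitted log2 fold changes were -4.12 (SE 0.86, edgeR adjusted p = 0.00106) in batch A, or -5.44 without library 2, and -7.83 (SE 0.45, adjusted p = 5.33e-10) in batch B. The edgeR interaction of -3.73 (SE 1.07, adjusted p = 0.0307) depended on single libraries: without batch A Sox2-positive library 2 it was -2.37 (adjusted p = 0.146), and without batch B Sox2-negative library 1, or Sox2-positive library 3 or 6, the adjusted p was 0.0526, 0.0557 or 0.0545. Sox2-negative levels of Lgr6 did not overlap between batches, 34.4 ± 9.56 CPM in A and 54.3 ± 4.39 CPM in B, but the fitted difference was not called (edgeR log2 0.66, SE 0.64, adjusted p = 0.574).

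Compared per length, which the comparison of genes needs, Lgr4 was the highest of the 3 receptors in all 23 libraries. Levels were divided by the longest coding transcript, 5060 bases for Lgr4, 4714 for Lgr5 and 6675 for Lgr6. The median coding transcripts have 5024, 2652 and 4747.5 bases in the same order, so the shares depend on the transcript chosen. Whether the deposited counts already hold an adjustment for length is not given in the sources used here. Lgr5 stood above Lgr6 in all 13 Sox2-positive libraries and Lgr6 above Lgr5 in all 10 Sox2-negative libraries. Of the summed level per length, Lgr4 made up 82.1 ± 4.16% (Sox2-negative) and 82.6 ± 3.11% (Sox2-positive) in batch A, and 74.6 ± 3.82% and 72.0 ± 5.84% in the same order in batch B. Lgr5 made up 16.8 ± 3.49% and 27.9 ± 5.86% in the Sox2-positive libraries of batches A and B, and 1.48 ± 1.33% and 2.11 ± 1.39% in the Sox2-negative ones. For Lgr6 the shares were 16.4 ± 4.24% and 23.2 ± 3.02% in the Sox2-negative libraries and 0.552 ± 0.851% and 0.0434 ± 0.0579% in the Sox2-positive ones. The sum itself was 31.6 ± 5.04 and 35.4 ± 5.11 CPM per kb in Sox2-negative and 52.0 ± 3.95 and 86.1 ± 6.35 CPM per kb in Sox2-positive libraries of batches A and B, so the second receptor of each population added to a pool in which Lgr4 was the larger part.

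**Figure D2:**
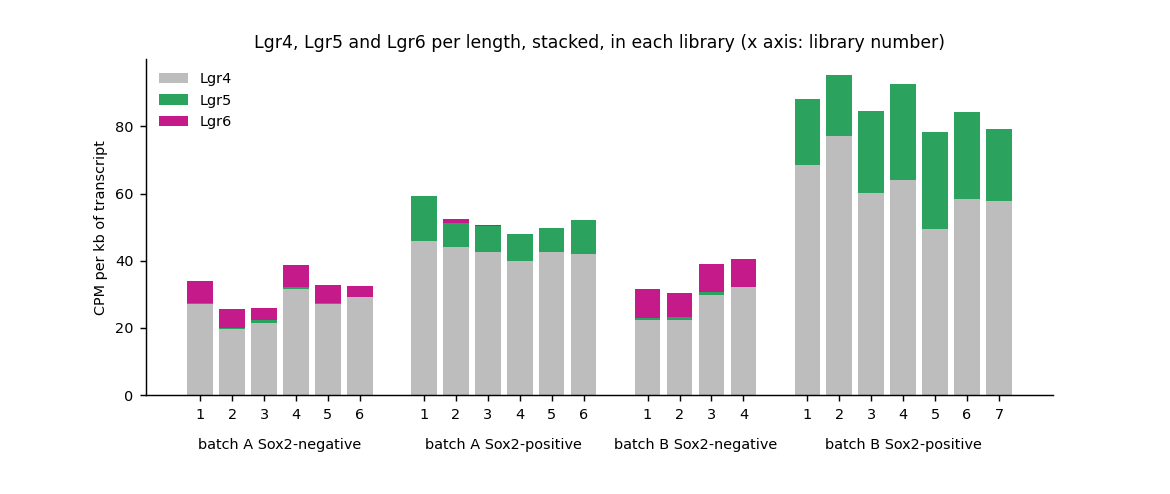
Stacked level per length of Lgr4 (grey), Lgr5 (green) and Lgr6 (magenta) in each of the 23 libraries (x axis, library number within its group), in CPM per kb of the longest coding transcript (y axis). Green segments stand out in the 13 Sox2-positive and magenta ones in the 10 Sox2-negative libraries, on top of a larger grey Lgr4 segment in every library.

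Promoters are shown for Lgr4 and Lgr6, the receptors with a RefSeq promoter entry (GRCm38.p6), because their levels went in opposite directions. Each sequence holds the 250 bases before the gene start, 5′ to 3′ on the gene's strand, at chr2:109917397-109917646 (plus) for Lgr4 and chr1:135105277-135105526 (minus) for Lgr6, with motif matches in capitals.
Lgr4: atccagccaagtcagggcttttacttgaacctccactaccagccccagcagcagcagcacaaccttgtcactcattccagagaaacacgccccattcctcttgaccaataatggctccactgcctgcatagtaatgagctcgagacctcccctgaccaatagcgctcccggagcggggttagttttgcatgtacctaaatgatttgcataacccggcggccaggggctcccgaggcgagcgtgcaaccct
Lgr6: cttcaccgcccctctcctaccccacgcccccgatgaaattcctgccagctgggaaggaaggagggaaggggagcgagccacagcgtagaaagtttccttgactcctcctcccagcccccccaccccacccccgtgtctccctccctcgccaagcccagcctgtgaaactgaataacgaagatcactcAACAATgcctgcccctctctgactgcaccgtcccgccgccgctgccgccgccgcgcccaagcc
Searched on both strands were the TCF/LEF letters CTTTGAA and CTTTGAT, the SOX letters AACAAT and ACAAAG and the TATA box letters TATAAA. The TCF/LEF letters and the reverse complement of ACAAAG share the run CTTTG. Lgr6 held AACAAT at positions -63 to -58 before its start, on its own strand, and Lgr4 held none of the motifs. Among 32851 promoters of this length, 24.0% held a SOX match, 7.48% a TCF/LEF match and 12.4% TATAAA, so a single SOX match is common. The GC content was 55.6% for Lgr4 and 65.2% for Lgr6, against a median of 52.4%. Of the other members, Lrig1 held AACAAT on the opposite strand at -22 to -17, and Abcg2, Spock1 and Pcp4 held none.

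Ligand genes of the 3 receptors were higher in Sox2-negative cells, as was Lgr6, whereas Lgr4 and Lgr5 were higher in Sox2-positive cells. Lgr4 was also present in the Sox2-negative libraries, at means of 132 (batch A) and 134 CPM (batch B). Of 10 ligand and receptor partners, 7 were lower (32.5% of all genes tested) and 2 higher (24.9%) in Sox2-positive cells over both batches (edgeR). Their median log2 fold change was -4.54 against -0.12 over all genes tested. Lower were the 4 R-spondin genes, Ndp (norrin, a Frizzled ligand reported to bind LGR4), Tnfsf11 (RANKL, also reported to bind LGR4) and the co-receptor Lrp6, and higher were the ubiquitin ligases Rnf43 and Znrf3. The summed level of Rspo1, Rspo2, Rspo3 and Rspo4 was 123 ± 11.5 (batch A) and 116 ± 19.4 CPM (batch B) in Sox2-negative libraries, and 2.40 ± 2.26 and 0.658 ± 0.685 CPM in the Sox2-positive ones. The highest sum of any Sox2-positive library was 5.52 CPM, and the lowest of any Sox2-negative library was 93.5 CPM.

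Rspo4 had the highest mean CPM of the R-spondin genes in Sox2-negative libraries, 60.5 ± 20.6 (batch A) and 45.8 ± 22.9 CPM (batch B). In batch B the Rspo1 mean was within its spread, and these levels were not divided by length. Rspo4 averaged 0.288 ± 0.621 CPM in batch A Sox2-positive libraries and was at 0 in all 7 of batch B. The latter was at least 63.6-fold lower than in Sox2-negative cells at a floor of 3 counts per library. Rspo2, at 23.04 ± 3.37 CPM in batch B Sox2-negative libraries, was likewise at 0 in those 7, at least 32.0-fold lower. Rspo1 went from 34.4 ± 12.2 to 1.29 ± 1.61 CPM in batch A and from 39.5 ± 9.03 to 0.634 ± 0.674 CPM in batch B. The mesenchymal marker sums given above were also higher in every Sox2-negative than in every Sox2-positive library, and their part was not tested.

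Znrf3 averaged 84.9 ± 29.8 and 120 ± 15.3 CPM in batch A Sox2-negative and Sox2-positive libraries, and 48.3 ± 15.95 and 117 ± 11.8 CPM in batch B, with edgeR adjusted p of 0.0561 and 1.27e-05. Rnf43 was called over both batches (log2 1.03, SE 0.36, edgeR adjusted p = 0.0161) but in neither alone. Lrp6 was lower over both batches (log2 -0.60, SE 0.15, edgeR adjusted p = 0.00119), and Lrp5 was not called. No gene of this list had a called interaction. Of 5 other leucine-rich-repeat G protein coupled receptors (Fshr, Lhcgr, Tshr, Rxfp1, Rxfp2), only Rxfp2 passed the filter, with group means of 0.0296 to 2.21 CPM no call over both batches, and a call as higher in Sox2-positive cells in batch B (edgeR log2 5.34, SE 1.28, adjusted p = 0.00227).

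**Figure D3:**
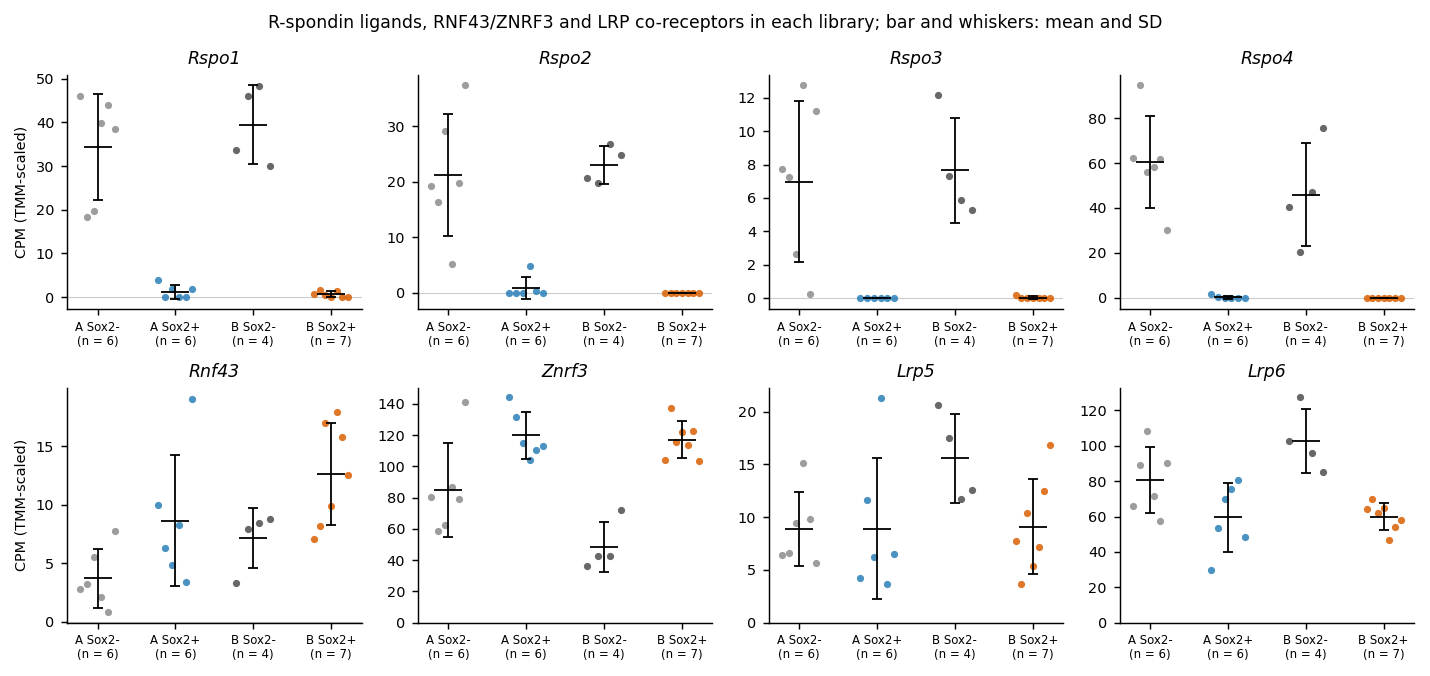
Level in CPM (y axis, linear, own scale in each panel) of the 4 R-spondin genes, Rnf43, Znrf3, Lrp5 and Lrp6 in every library by batch and population (x axis); points are libraries, the bar and whiskers the mean and SD. Rspo1 to Rspo4 lie near 0 in Sox2-positive libraries, Rspo4 at 0 in all 7 of batch B. Lrp5 overlaps between populations in both batches, and Lrp6 in batch A only. In batch B, Lrp6 lies at 85.2 CPM or more in Sox2-negative and at no more than 69.8 CPM in Sox2-positive libraries.

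Genes that accompany Lgr5 at the intestinal crypt base were mostly lower in Sox2-positive cells. Of 8 listed, 7 passed the filter and 6 were lower in Sox2-positive cells over both batches (edgeR, median log2 -1.36 against -0.12 for all genes, of which 32.5% were called lower): Olfm4, Smoc2, Tnfrsf19, Axin2, Cdca7 and Nkd1. The mesenchymal, endothelial and leukocyte marker sums were lower in the same libraries (mesenchymal 717 to 1933 against 11416 to 14560 CPM), and their part was not tested. Axin2, a common Wnt target gene, went from 28.7 ± 16.9 to 2.07 ± 1.77 CPM in batch A and from 37.5 ± 3.15 to 1.06 ± 0.830 CPM in batch B. Olfm4, a secreted glycoprotein of crypt-base cells, went from 18.9 ± 4.58 to 0.746 ± 0.939 CPM and from 16.4 ± 7.12 to 1.67 ± 1.56 CPM. Ascl2, a transcription factor of the same cells, averaged 1.04 CPM or less in each group and was not called. Smoc2, a matricellular protein, averaged 91.8 ± 43.5 and 51.6 ± 10.9 CPM in batch A, and 782 ± 51.6 and 89.8 ± 18.7 CPM in batch B. Its difference was unequal between batches (edgeR interaction -2.29, SE 0.33, adjusted p = 3.66e-05), as were those of Tnfrsf19 (1.37), Cdca7 (-1.20) and Nkd1 (-2.47).

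Lrig1 (ENSMUSG00000030029.14, chr6:94604529-94700158, minus strand), a membrane protein that restrains ERBB receptors and marks stem cells in skin and gut, did not separate the populations. Batch A Sox2-negative libraries held 1.25 to 23.8 CPM (median 20.5 CPM) and Sox2-positive libraries 0.477 to 12.5 CPM (median 7.62 CPM). Batch B Sox2-negative libraries held 33.4, 5.08, 14.5 and 12.4 CPM, and Sox2-positive libraries 6.12 to 38.3 CPM (median 16.7 CPM). Each group spread widely, with coefficients of variation from 60.2% to 73.9%, and the populations overlapped in both batches. The log2 fold change over both batches was -0.49 with a 95% interval from -1.52 to 0.54 (edgeR adjusted p = 0.413). It was -1.06 in batch A (95% interval -2.64 to 0.51) and 0.30 in batch B (95% interval -0.75 to 1.34). Differences within these intervals fit the data, so equal levels were not shown. Exact two-sided permutation tests of the means gave p = 0.119 (batch A) and p = 0.752 (batch B), unadjusted among 16 such tests.

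The relatives and receptor partners of Lrig1 were mixed. Of 7 tested, 2 were higher (Erbb2, Erbb3) and 3 lower (Lrig3, Egfr, Ret) over both batches, where 24.9% of all genes were called higher and 32.5% lower. The median log2 was -0.30 against -0.12 for all genes. Erbb2, a receptor tyrosine kinase, averaged 31.8 ± 11.6 and 81.7 ± 15.05 CPM in batch A Sox2-negative and Sox2-positive libraries and 43.7 ± 11.2 and 81.3 ± 17.7 CPM in batch B. Egfr, the epidermal growth factor receptor, went the other way, from 43.0 ± 32.0 to 7.68 ± 7.63 CPM and from 25.9 ± 5.85 to 6.92 ± 3.64 CPM. Erbb3, which is also a glial marker, rose more in batch A than in batch B (edgeR interaction -3.58, SE 0.78, adjusted p = 0.00412), where Sox2-positive cells held 73.6 ± 16.6 and 18.3 ± 5.28 CPM beside the glial marker sums given above. Met, the hepatocyte growth factor receptor, was 49.5 ± 12.6 CPM in batch B Sox2-positive cells and 7.46 to 12.8 CPM on average in the other groups (interaction 3.26, edgeR adjusted p = 0.00109).

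Abcg2 (ENSMUSG00000029802.13, chr6:58584523-58695676, plus strand) encodes the efflux pump behind the dye-excluding side population by which stem cells of several tissues have been sorted. It was lower in Sox2-positive cells in both batches. Batch A Sox2-negative libraries held 38.5 to 158 CPM (median 72.2 CPM) and Sox2-positive libraries 2.22 to 14.9 CPM (median 9.73 CPM). Batch B Sox2-negative libraries held 31.02, 27.5, 40.3 and 25.9 CPM, and Sox2-positive libraries 0 to 3.98 CPM (median 1.94 CPM). Every Sox2-negative library exceeded every Sox2-positive library of its batch. The log2 fold changes were -3.11 (SE 0.44, edgeR adjusted p = 3.34e-05) in batch A and -3.85 (SE 0.50, adjusted p = 9.19e-06) in batch B, with no called interaction (-0.79, 95% interval -2.17 to 0.58). Endothelial markers summed in Sox2-negative libraries to 968 to 1412 CPM (batch A) and 261 to 416 CPM (batch B), and in Sox2-positive libraries to 19.6 to 35.3 CPM (batch A) and 20.7 to 36.5 CPM (batch B). Abcg2 averaged 79.8 ± 43.2 and 31.2 ± 6.44 CPM in the Sox2-negative and 9.21 ± 4.71 and 2.02 ± 1.58 CPM in the Sox2-positive libraries of batches A and B. The part of these markers, and of the erythroid markers given above, in the Abcg2 levels was not tested. Abcg2 was also lower in batch B than in batch A Sox2-positive cells (edgeR log2 -2.15, SE 0.48, adjusted p = 0.00312), although the libraries overlapped.

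Among 7 other transporters tested, Abcg1, a cholesterol exporter, was the only one higher in Sox2-positive cells over both batches (edgeR). Abcg3, Abcg5 and Abcg8 were lower, where 24.9% of all genes were called higher and 32.5% lower. The median log2 of the transporters was -0.88, against -0.12 for all genes. Abcg1 averaged 31.1 ± 8.28 and 52.6 ± 5.28 CPM in batch A, and 20.5 ± 9.84 and 94.2 ± 10.5 CPM in batch B, a larger difference in B (interaction 1.44, SE 0.31, edgeR adjusted p = 0.00404). The sterol transporter gene Abcg5 went from 9.72 ± 7.86 to 0.945 ± 2.00 CPM and from 12.8 ± 4.10 to 0.184 ± 0.338 CPM. Abcc1, a multidrug pump, was at 27.2 to 36.6 CPM on average in all groups and was not called.

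Pknox2 (ENSMUSG00000035934.16, chr9:36890982-37147407, minus strand), a TALE homeodomain transcription factor, was low but higher in Sox2-positive cells. Batch A Sox2-negative libraries held 0.267 to 19.0 CPM (median 0.842 CPM) and Sox2-positive libraries 3.61 to 26.3 CPM (median 13.8 CPM). Batch B Sox2-negative libraries held 1.42, 1.79, 5.69 and 0 CPM, and Sox2-positive libraries 5.78 to 12.3 CPM (median 7.35 CPM). In batch A a single Sox2-negative library, number 4 with 73 counts, lay within the Sox2-positive range, and the other 5 held no more than 1.31 CPM. The means differed 3.69-fold in batch A and 3.64-fold in batch B. Pooling the batches gave a log2 fold change of 1.87 (SE 0.61, edgeR adjusted p = 0.0112). Batch A alone gave 1.89 (SE 0.91, adjusted p = 0.104), and without Sox2-negative library 4 it gave 4.17 (edgeR adjusted p = 0.00016). Batch B alone gave 1.92 (SE 0.69, edgeR adjusted p = 0.0266), a call lost without Sox2-negative library 1 (adjusted p = 0.0684) or 2 (0.0609), or Sox2-positive library 4 (0.0511).

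Of the TALE homeobox relatives of Pknox2, 10 were tested, and 3 were higher (Meis1, Tgif1, Tgif2) and 2 lower (Meis2, Pbx2) over both batches. Among all genes, 24.9% were called higher and 32.5% lower. The median log2 was 0.34 against -0.12 for all genes. Meis1, a HOX cofactor, averaged 6.23 ± 10.6 and 112 ± 20.99 CPM in batch A and 2.99 ± 2.88 and 155 ± 15.7 CPM in batch B (edgeR log2 4.78, SE 0.55, adjusted p = 3.67e-08). Tgif2, a repressor of TGF-beta responses, averaged 2.62 ± 6.05 and 83.7 ± 6.19 CPM, and 1.72 ± 3.43 and 86.5 ± 35.3 CPM. Meis2 went from 6.37 ± 4.12 to 0.375 ± 0.499 CPM in batch A. Pknox1, the closest relative, averaged 15.8 to 28.2 CPM over the groups and was not called (edgeR log2 0.52, SE 0.25, adjusted p = 0.081).

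Spock1 (ENSMUSG00000056222.15, chr13:57421195-57908332, minus strand), which encodes the secreted proteoglycan testican-1, separated the populations in batch A and not in batch B. Batch A Sox2-negative libraries held 8.51 to 14.8 CPM (median 12.6 CPM) and Sox2-positive libraries 27.7 to 96.8 CPM (median 53.5 CPM). In batch B the Sox2-negative levels were 75.8, 76.8, 47.0 and 73.3 CPM, and the Sox2-positive ones 41.9 to 89.7 CPM (median 51.7 CPM). The ranges of the other 3 groups overlapped, and batch A Sox2-negative cells lay below all of them. The log2 fold change was 2.25 in batch A (SE 0.35, edgeR adjusted p = 7.72e-05) and -0.14 in batch B (SE 0.22, adjusted p = 0.609), and the interaction was called (-2.46, SE 0.41, edgeR adjusted p = 0.000257). Within Sox2-negative cells batch B was 5.70-fold above batch A in the means with no overlap (edgeR log2 2.51, SE 0.31, adjusted p = 3.97e-06), and within Sox2-positive cells the difference was 0.05 (95% interval -0.50 to 0.59). The value over both batches, 1.02 (SE 0.33, edgeR adjusted p = 0.00931), therefore averages unlike batches, and with limma-voom and library quality weights it was 0.43 (adjusted p = 0.258).

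The relatives of Spock1 were mostly lower in Sox2-positive cells. Of 6 testican and SPARC family genes tested, 5 were lower in Sox2-positive cells over both batches and 1, Sparcl1, was higher (median log2 -1.67 against -0.12). Among all genes, 32.5% were called lower and 24.9% higher. Sparc, an abundant collagen-binding protein of mesenchyme and bone, averaged 2913 ± 207 and 1090 ± 79.6 CPM in batch A and 2095 ± 127 and 665 ± 59.9 CPM in batch B. Sparcl1 averaged 254 ± 29.3 and 438 ± 25.8 CPM in batch A, and 65.6 ± 16.6 and 1123 ± 54.2 CPM in batch B, an unequal difference (edgeR interaction 3.31, SE 0.17, adjusted p = 1.05e-13). Spock2 and Smoc1 had higher mean levels in batch B than in batch A Sox2-negative cells, 23.2 ± 2.25 against 6.19 ± 4.83 CPM and 38.8 ± 10.1 against 10.5 ± 8.91 CPM, but neither batch difference was called.

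Pcp4 (ENSMUSG00000090223.2, chr16:96467606-96525793, plus strand) encodes a small calmodulin-binding protein first described in Purkinje cells. It was abundant in all groups and differed between populations in batch B. Batch A Sox2-negative libraries held 79.2 to 139 CPM (median 110.4 CPM) and Sox2-positive libraries 101 to 141 CPM (median 117 CPM). Batch B Sox2-negative libraries held 49.2, 54.8, 47.3 and 53.0 CPM, and Sox2-positive libraries 125 to 201 CPM (median 145 CPM). The low group was batch B Sox2-negative, with no overlap with any other group and a coefficient of variation of 6.73%. The log2 fold change was 0.11 in batch A (95% interval -0.21 to 0.43, edgeR adjusted p = 0.596) and 1.67 in batch B (SE 0.15, adjusted p = 1.61e-07), with an interaction of 1.50 (SE 0.21, edgeR adjusted p = 2.67e-05). Within Sox2-negative cells batch B was lower (edgeR log2 -1.12, SE 0.16, adjusted p = 3.20e-05). Erythroid markers were highest in that same group, at 53424 CPM or more, and their part in it was not tested. Batch B Sox2-positive libraries 1 and 2 again stood highest in their group, at 201 and 186 CPM.

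Among other calmodulin regulators and calmodulin genes, Pcp4l1, Nrgn and Calm3 were lower and Calm2 was higher in Sox2-positive cells over both batches (edgeR). Pcp4l1, the closest relative of Pcp4, went from 22.03 ± 13.3 to 0.951 ± 0.779 CPM in batch A and from 9.70 ± 2.20 to 0.280 ± 0.467 CPM in batch B. Calm2, a calmodulin gene, went from 572 ± 66.8 to 1575 ± 167 CPM and from 348 ± 117 to 968 ± 155 CPM. Calm3 fell in both batches, and more in batch B (edgeR interaction -1.41, SE 0.23, adjusted p = 0.000204). Gap43, a growth-cone protein that is also made by Schwann cell precursors, was higher in Sox2-positive cells in batch A and lower in batch B (interaction -3.60, SE 0.51, edgeR adjusted p = 2.79e-05), the batches whose glial marker sums differed as given above.

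**Figure D4:**
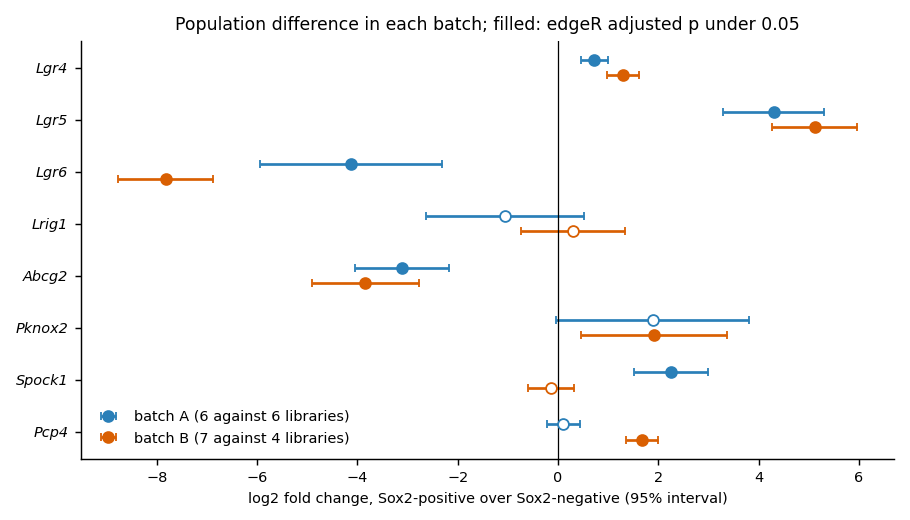
Log2 fold change of Sox2-positive over Sox2-negative cells (x axis) for the 8 genes (y axis) in batch A (blue) and batch B (orange), with 95% intervals from edgeR; filled points have an adjusted p under 0.05. Lgr5 lies at 4.30 and 5.11, Lgr6 at -4.12 and -7.83, and the batches part for Spock1 (2.25 and -0.14) and Pcp4 (0.11 and 1.67).

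The population difference was unequal between the batches for 3 of the 8 genes, Lgr6, Spock1 and Pcp4 (edgeR interaction), where 7.04% of all genes were called. Pcp4 was the 1 with a higher difference in batch B (2.82% of genes), and Lgr6 and Spock1 had a lower one (4.22%). Between batches within Sox2-negative cells, 2 of the 8 were called, Spock1 higher and Pcp4 lower in batch B (11.2% of all genes, 5.85% higher and 5.35% lower). Within Sox2-positive cells 4 of the 8 were called (10.4% of all genes, 4.85% higher and 5.54% lower), Lgr4 and Lgr5 higher and Lgr6 and Abcg2 lower in batch B. The Lgr6 value of -3.08 (SE 0.85, edgeR adjusted p = 0.0173) was -1.73 without batch A Sox2-positive library 2 (adjusted p = 0.204). Groups of the 2 batches did not overlap for Lgr4 and Lgr5 among Sox2-positive (8.55% of genes tested) and for Lgr6, Spock1 and Pcp4 among Sox2-negative libraries (8.87%). Batch, day and mice cannot be told apart.

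Ranked per length, Pcp4 was the highest of the 8 genes in all 4 groups, at 79.7 ± 5.37 to 242 ± 43.9 CPM per kb of its 641-base transcript, and Lgr4 was next, at 26.0 ± 4.59 to 62.2 ± 8.78 CPM per kb. The third place differed by group: Abcg2 in batch A Sox2-negative (14.0 ± 7.55 CPM per kb), Spock1 in Sox2-positive cells of batch A (12.4 ± 6.08) and Sox2-negative cells of batch B (14.8 ± 3.09), and Lgr5 in Sox2-positive cells of batch B (23.8 ± 4.21). The order of Pcp4 and Lgr4 depends on the division by length, since by CPM alone Lgr4 was the higher in all 4 groups, and whether the deposited counts already hold an adjustment for length is not given in the sources used here. In batch A Sox2-positive cells the Lgr5 mean (8.83 ± 2.51 CPM per kb) was within the spread of Spock1. At the bottom, Lgr6 was last in both Sox2-positive groups (0.287 ± 0.444 and 0.0369 ± 0.0462 CPM per kb). Lgr5 was last in batch A Sox2-negative cells (0.448 ± 0.348), within the spread of Pknox2 (1.05 ± 2.05). That Pknox2 mean rests largely on library 4, at 19.0 CPM where the next highest held 1.31 CPM. Pknox2 was last in batch B Sox2-negative cells (0.613 ± 0.670), where it and Lgr5 (0.710 ± 0.469) were each within the spread of the other.

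Among other reported incisor stem cell markers, leaving out Sox2, by which the cells were sorted, 4 of 9 were higher, Sfrp5, Etv4, Etv5 and Isl1, and 4 lower, Gli1, Igfbp5, Acta2 and Ptch1 (edgeR), where 24.9% of all genes were called higher and 32.5% lower. The list does not separate epithelial from mesenchymal markers. Mesenchymal marker sums were also lower in Sox2-positive libraries (717 to 1933 against 11416 to 14560 CPM), and their part was not tested. The differences of Etv4, Igfbp5 and Acta2 were unequal between the batches, and Etv4 and Acta2 were called in batch A alone. Isl1, a LIM homeodomain factor, averaged 10.1 ± 5.53 and 242 ± 29.4 CPM in batch A and 17.5 ± 4.05 and 314 ± 35.8 CPM in batch B.

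**Figure D5:**
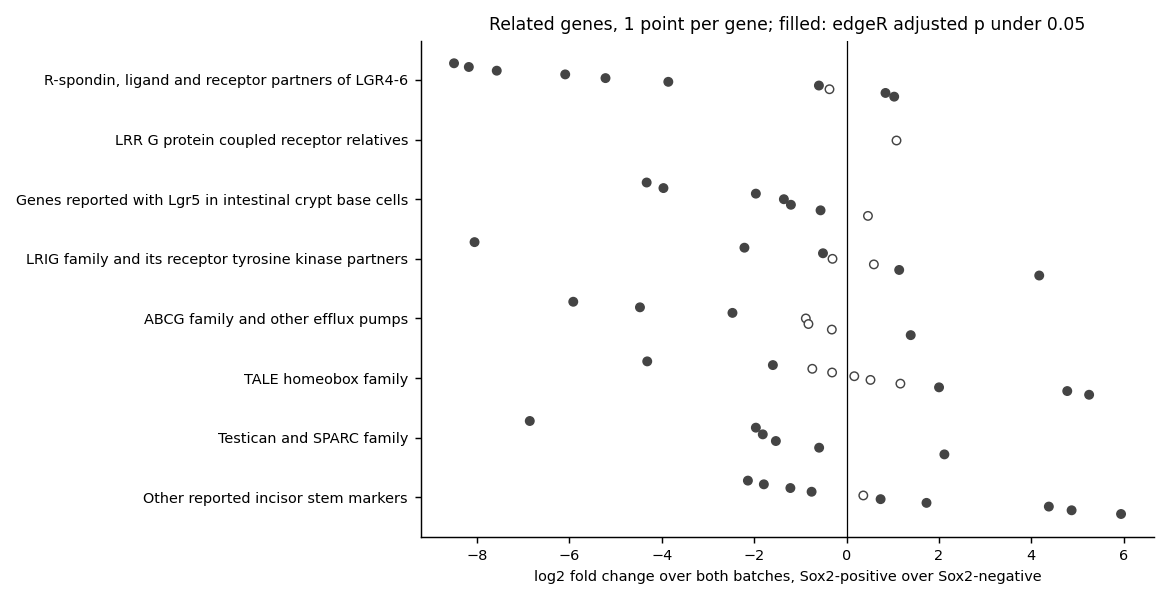
Log2 fold change of Sox2-positive over Sox2-negative cells over both batches (x axis) for each tested gene of 8 lists of related genes (y axis), 1 point per gene; filled points have an edgeR adjusted p under 0.05. The R-spondin and partner list has its median at -4.54, the crypt-base list at -1.36 and the TALE list at 0.34. All lists but that of the other leucine-rich-repeat receptors, which has a single point, reach to both sides. The rightmost point of the last list is Sox2, by which the cells were sorted.

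The genes with the most similar profile to each member, by root mean square distance of centred log2 CPM over the 23 libraries among 11072 genes with a mean of at least 10 CPM, are given as a description, since libraries share groups. Closest to Lgr5 were Cldn4, a tight junction protein (distance 0.783, r = 0.960), Pkp2, a desmosomal protein, and Nnat. Closest to Lgr6 were Col13a1 (distance 0.850, r = 0.958), Zeb1 and Adcy5, and to Abcg2 Zeb2, Eng, an endothelial TGF-beta co-receptor, and B2m. Lgr4 lay nearest to Rpl4, a ribosomal protein (distance 0.194, r = 0.947), Gm9625 and Gstm5. Pcp4 lay nearest to the mitochondrial transcripts mt-Co3 (distance 0.212, r = 0.944) and mt-Cytb, with Lsm10 between them. Spock1 was nearest to Nfix, Dlx2 and Gnb5 (r from 0.824 to 0.864), Pknox2 to Ston2, Rgmb and Ubtd2 (0.809 to 0.848), and Lrig1, with the loosest match, to Adar, Hltf and Snrnp48 (0.652 to 0.707).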

How the data were processed

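The deposited table holds estimated counts per gene and library, made by the authors with FastQC, Trimmomatic and Salmon on mm10, per the submitters' processing notes; versions, annotation and strand setting are not given in the sources used here. Only 0.000436% of nonzero values were whole (tolerance 1e-06), so the deposited counts may hold a per-gene adjustment, and counts near 1 may not be single reads. Values were rounded to whole numbers and fitted with edgeR 4.0.16 in R 4.3.3 (TMM, filterByExpr with minimum count 10, quasi-likelihood F test, two-sided, Benjamini-Hochberg over all genes tested, call at adjusted p under 0.05). Symbols, positions and lengths came from GENCODE M21 by Ensembl identifier without version (54094 matched, 99.5%). Promoters came from RefSeq (GRCm38.p6); the sources used here held none for Lgr5 and Pknox2. CPM used TMM-scaled totals. Intervals on pooled ratios are exact binomial (95%). The members, the lists of related genes and the markers were chosen with earlier results of these data known. Named genes were the members, list genes called over both batches or given as examples, and the 3 nearest profiles per member. Alternatives were DESeq2 1.42.0, limma-voom (limma 3.58.1) with quality weights, other scalings and filters, a replicate block, and leaving libraries out. The fits were tested on simulated data. A count over the calmodulin list is not reported here.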

Additional observations from a re-analysis of the deposited data

Results flagged for a closer look

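Among 36 groups of 4 to 7 libraries checked for a library far from the others (8 genes and Sox2 in 4 groups), 6 had one, where chance flags about 1 in 20 groups. For Lgr6 these were batch A Sox2-positive library 2 at 7.69 CPM and batch B Sox2-positive library 7 at 0.862 CPM, the latter at the level of 2 counts. Pknox2 stood out in batch A Sox2-negative library 4 at 19.0 CPM, and Spock1 in batch B Sox2-negative library 3 at 47.0 CPM, below the other 3. Sox2 stood out in Sox2-negative libraries, at 0.260 CPM in batch A library 4 and 1.18 CPM in batch B library 1. All other libraries of those Sox2-negative groups were at 0, where any value above 0 stands out, so the chance rate does not apply to them. Batch A Sox2-negative library 4 appears for both Pknox2 and Sox2, the latter from 1 count.

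Population differences that were unequal between the batches by the edgeR interaction test (batch B minus batch A, log2, adjusted p under 0.05) were -3.73 for Lgr6, -2.46 for Spock1 and 1.50 for Pcp4. Among the named related genes they were -2.29 for Smoc2, 1.37 for Tnfrsf19, -1.20 for Cdca7, -2.47 for Nkd1, -3.58 for Erbb3, 3.26 for Met, 1.44 for Abcg1, 1.02 for Tgif1, 3.31 for Sparcl1, -3.60 for Gap43, -1.41 for Calm3, -2.27 for Etv4, 1.41 for Igfbp5 and 1.94 for Acta2.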

How the results depend on the processing

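Of 1280 alternative values for the members' fold changes, 1221 kept direction and call, 16 lost the call, 10 gained one, and 33 changed sign without a call on either side; 35 of 48 results changed in no alternative. Same-numbered libraries did not deviate together over all genes (r from -0.0212 to 0.0444, no pair over 0.1). A low r of this kind cannot settle whether they share mice or a sort, so pairing by number stays unknown. With a replicate block, genes with a called interaction fell from 1210 to 557, Pknox2 was called in batch A (3.26, adjusted p = 0.00899) and not in B (2.29, 0.0924), and the Lgr6 interaction lost its call (-2.75, 0.351). Without batch B libraries 1 and 2, genes called were 481 for the interaction, 754 (from 1924) between batches in Sox2-negative and 1159 (from 1785) in Sox2-positive cells, and the Lgr6 interaction (-4.16, 0.143) and Pknox2 in batch B (1.67, 0.199) were not called. By limma-voom, 3313 genes were called in Sox2-positive cells, Pknox2 was called in batch A (3.18, 0.0159), and neither the Lgr6 interaction (-1.90, 0.219) nor its Sox2-positive batch difference (-1.25, 0.338) was. That batch difference was also lost without batch A Sox2-positive library 2 (-1.73, 0.204). The cause was not tested. Abcg2 between batches in Sox2-negative cells was called by DESeq2 (-1.41, 0.0262), limma-voom (-1.22, 0.0284) and without the filter (-1.35, 0.0413).

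Sign changes, all uncalled: Spock1 in batch B 0.16 without batch B libraries 1 and 2; Pknox2 interaction 0.0051 (DESeq2) and 0.0029 (total counts), -2.31 to 0.98 with 1 library left out; Lgr4 between batches in Sox2-negative cells -0.017 (DESeq2), -0.065 (limma-voom), -0.016 (RLE) and -0.12 (total counts), -0.060 to 0.12 with 1 library left out; Lrig1 there -0.073 (total counts) and -0.20 (without batch B libraries 1 and 2), -0.52 to 0.39; Pknox2 there -1.75 to 1.52; Spock1 in Sox2-positive cells -0.042 (total counts), -0.090 to 0.26. Total counts moved the median of all genes by 0.12 over both batches and -0.15 between batches in Sox2-negative cells, where calls split 661 higher to 1388 lower against 1005 to 919; in Sox2-positive cells they split 666 to 1214 against 833 to 952. Without batch B libraries 1 and 2, members called were 7 over both batches, 5 in batch B, 2 for the interaction, 2 in Sox2-negative and 3 in Sox2-positive cells. With 1 library left out, they were 7 over both batches, 5 to 6 in each batch, 2 to 3 for the interaction, 2 in Sox2-negative and 3 to 5 in Sox2-positive cells. Depth limits values at or under 3 counts, which 1 or more libraries had for Lgr5, Lgr6, Lrig1, Abcg2, Pknox2 and Sox2.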
